A study of Mus musculus with 10 samples.

Results

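The expression of 10 adhesion G protein-coupled receptors was followed in the livers of mice with and without the glucagon receptor, Gcgr. They were Gpr64 (Adgrg2), Gpr98 (Adgrv1), Gpr56 (Adgrg1), Gpr116 (Adgrf5), Gpr124 (Adgra2), Gpr125 (Adgra3), Gpr126 (Adgrg6), Gpr133 (Adgrd1), Eltd1 (Adgrl4) and Lphn2 (Adgrl2), 10 of the 18918 genes that could be tested. The set was selected on the KO minus WT values of Gpr64 and Gpr98, which were higher in the livers without Gcgr (KO) than in wild type (WT), so that rise is described below and not tested. The 10 receptors had 19 probes among the 41174 on the array, and 12 of those probes passed the detection filter, with at least 1 for every receptor.

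The WT livers numbered 5 (WT 1 to 5, of which 1, 2 and 5 were male and 3 and 4 female), and the other 5 came from mice lacking Gcgr (KO 1 to 5, of which 1 and 5 were male and 2, 3 and 4 female). The labels give genotype, sex and tissue; the age and strain of the mice and the part of Gcgr that was deleted are not given in the sources used here. Each liver's RNA was labelled with Cy5 and hybridised together with a Cy3-labelled pool of mouse RNA, the same in all hybridisations, and a value below is the log2 ratio of liver over that pool.

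Adhesion receptors carry a long extracellular part with adhesive domains and a domain in which the protein cuts itself. The piece left at the membrane starts with a tethered peptide that can activate the receptor once the outer piece is pulled away. They bind matrix proteins, membrane proteins of neighbouring cells or lipids and signal through several classes of G protein. In the liver, family members are best known from the cells around the hepatocyte, such as sinusoidal endothelium, macrophages and stellate cells.

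Gcgr itself separated the genotypes, with log2 ratios of 7.74 to 8.14 in the WT livers and 0.28 to 0.36 in the KO livers. Over all genes, 5.97% passed for KO minus WT (limma, Benjamini-Hochberg adjusted p under 0.05 over all genes tested), 547 higher and 583 lower. For female minus male 11.6% passed, and for the difference in KO effect between the sexes 0.0317% did, or 6 genes. The median net Cy5 signal of an array ran from 58.7 to 134, lower on slides 3 and 4 than on slides 1 and 2. Slide 1 held WT 1, WT 2, KO 1 and KO 2, slide 2 held KO 3 and KO 4, slide 3 held WT 3, WT 4 and KO 5, and slide 4 held WT 5. The 14 hepatocyte markers tested were on average at 7.23 to 7.82 per liver, and none of them passed for genotype. At an unadjusted limma p under 0.05 there was 1, against 3952 of all 18918 genes.

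Gpr64 was higher in every KO liver than in any WT liver. Gpr64 is an orphan receptor best known from the epithelium of the male reproductive ducts, and its probe lies on the X chromosome (155272098 to 155272157, plus strand, in the mm7 coordinates of the array files). The RefSeq promoter window of Gpr64 is shown because this receptor was 1 of the 2 that defined the set. It holds the 250 bases before the listed start on the plus strand (GRCm38.p6, chrX:160390440-160390689), with matches to the GC box (GGGCGG on either strand) in capitals.
Gpr64: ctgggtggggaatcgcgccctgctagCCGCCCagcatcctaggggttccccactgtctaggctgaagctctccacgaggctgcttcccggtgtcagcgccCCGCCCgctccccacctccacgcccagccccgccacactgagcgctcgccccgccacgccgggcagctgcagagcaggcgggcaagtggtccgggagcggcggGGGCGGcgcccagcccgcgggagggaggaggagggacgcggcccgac
The window had 3 GC boxes and a GC content of 75.6%. At least 1 GC box was present in 32.7% of all 32851 promoter windows of the same length. It held no full cAMP response element (TGACGTCA), a motif found in 1.55% of windows, and no partial site (TGACG, 17.8%).

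The log2 ratios of Gpr64 were -0.70, -0.73, -0.65, -0.30 and -0.71 in WT 1 to 5. They were 1.02, 1.33, 1.03, 1.47 and 0.95 in KO 1 to 5. The groups did not overlap, and WT 4, a female, stood above the other WT livers. The means were -0.62 ± 0.18 in WT and 1.16 ± 0.23 in KO livers (SD, n = 5 each). With sex in the model the difference was 1.72 (95% interval 1.51 to 1.94), or 3.30-fold. In males it was 1.70 and in females 1.75, and the difference between the sexes was 0.06 (95% interval -0.38 to 0.50). The probe was well above background in all 5 KO livers but in only 1 of 5 WT livers, so the fold rests on a dim WT level. Within slide 1 the difference was 1.89, and within slide 3, where the KO liver was male and the WT livers female, 1.42. With the scanner software's own log ratio, which subtracts background without an offset, the difference was 3.27.

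Gpr98 was the other receptor that defined the set. It encodes a very large receptor of the hair cell bundle and the photoreceptor, mutated in a form of Usher syndrome. Its probe on chromosome 13 (78124169 to 78124228, minus strand, mm7) stands near the downstream end of the stretch covered by its 7 probes. The promoter window is shown for comparison with that of Gpr64 (minus strand, GRCm38.p6, chr13:81633145-81633394), with the single CCAAT box (CCAAT on either strand, 33.8% of windows) in capitals.
Gpr98: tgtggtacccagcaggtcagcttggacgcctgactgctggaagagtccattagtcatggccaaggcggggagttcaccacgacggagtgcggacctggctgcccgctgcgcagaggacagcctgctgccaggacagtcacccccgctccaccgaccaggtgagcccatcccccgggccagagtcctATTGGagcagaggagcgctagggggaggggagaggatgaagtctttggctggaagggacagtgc
This window had a GC content of 64.4%, no GC box, no TATA box (TATAAA, 12.4% of windows) and neither form of the cAMP response element. RefSeq windows were found for 8 of the 10 receptors, 10 windows in all. The full cAMP response element was absent from all 10, and the partial site was present in 3, belonging to Lphn2, Gpr56 and Gpr126. An E-box (CACGTG, 6.02% of windows) was in none of the 10. Because TGACG is contained in TGACGTCA, the motifs overlap by construction, and a match only describes the letters of the window.

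The log2 ratios of Gpr98 were 1.22, 1.53, 0.83, 1.10 and 1.27 in WT 1 to 5. They were 4.83, 1.90, 2.43, 2.96 and 4.42 in KO 1 to 5. Every KO liver lay above every WT liver, and the KO males, KO 1 and KO 5, lay above the KO females. The means were 1.19 ± 0.25 in WT and 3.31 ± 1.27 in KO livers (SD, n = 5 each), a difference of 2.37 (95% interval 1.67 to 3.08) with sex in the model, or 5.18-fold.

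In males the KO effect on Gpr98 was 3.28 (SE 0.25, 9.72-fold), and in females it was 1.47 (SE 0.25, 2.76-fold). The difference between them, a comparison that did not choose the set, was -1.82 (SE 0.36, 95% interval -2.61 to -1.02). It had an unadjusted p of 0.000431, rank 62 of the 18918 genes, and did not pass after adjustment (limma adjusted p = 0.132). Within the KO livers alone, females were lower than males by a log2 difference of -2.19 (SE 0.25, limma adjusted p = 0.000572, 3 females and 2 males). Among WT livers the female minus male difference was -0.37 (SE 0.25, limma adjusted p = 0.408, 2 females and 3 males). The share of all genes passing in these 2 comparisons is not given here. That 1 passed and the other did not is no test of a sex difference particular to KO livers. The test of that is the difference in KO effect above, which did not pass. On slide 1, KO 1, a male, exceeded the mean of the 2 WT males by 3.45. On the same slide KO 2, a female, differed from KO 1 by -2.93. Within slide 1 as a whole the KO minus WT difference was 1.99, and within slide 3 it was 3.45.

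A second Gpr98 probe was above background. It lies 189.7 kb upstream of the main probe (78313879 to 78313938 on chromosome 13, mm7). Its log2 ratios were 0.81, 1.15, 0.69, 0.40 and 1.02 in WT 1 to 5, and 2.83, 1.05, 1.07, 1.41 and 2.85 in KO 1 to 5. The KO males were the highest livers, while KO 2 and KO 3, both females, fell below WT 2, a male, so the genotypes overlapped. Its KO minus WT difference was 1.24, where 5.59% of all probes above the filter passed. Its female minus male difference passed in the fit over all probes (-1.06, limma adjusted p = 0.0061). Its difference in KO effect between the sexes was -1.22 (SE 0.20, limma adjusted p = 0.109), where 0.026% of probes passed. The remaining 5 Gpr98 probes, 400.2 to 497 kb upstream of the main probe, were not well above background in any liver. Whether these probes and the downstream pair report the same transcript was not tested.

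**Figure D1:**
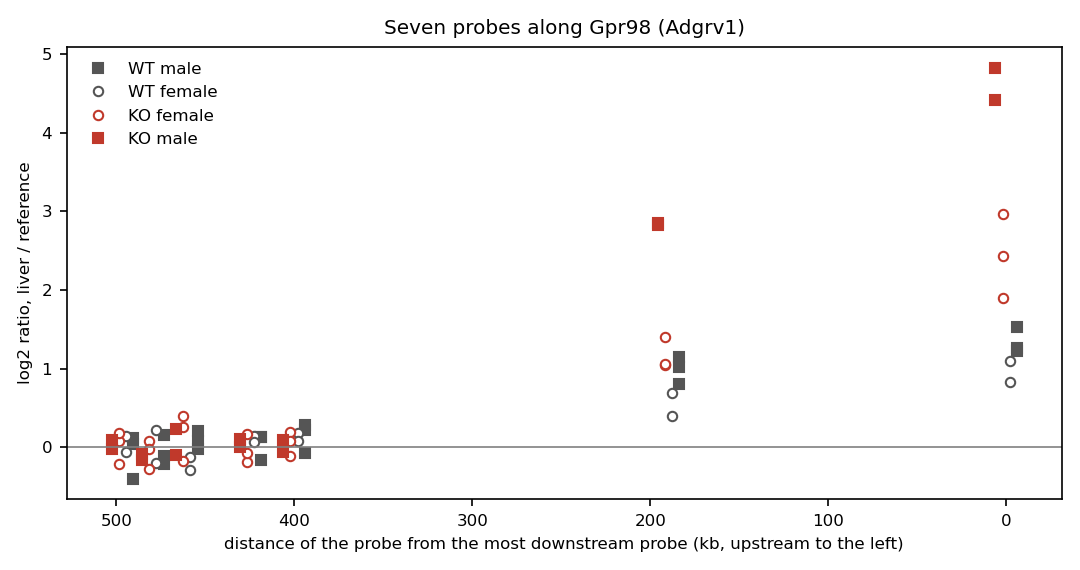
Log2 ratio of liver over reference (vertical axis) for the 7 probes of Gpr98 by distance from the most downstream probe in kb (horizontal axis, upstream to the left), 1 point per liver with small side steps by group. The pair of downstream probes puts the KO males (filled red squares) highest, at 4.42 and 4.83 for the most downstream probe, and the 5 upstream probes, not well above background in any liver, lie around 0.

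The reference pool was dim at the main Gpr98 probe, where it was well above background on 1 of 10 arrays. With the Cy5 channel alone the KO minus WT difference was 2.18, against 2.37 for the ratio.

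None of the other 8 receptors passed for KO minus WT, with limma adjusted p from 0.163 to 0.980. Because this contrast chose the set, the count of 2 of 10, both higher, beside the 5.97% of all genes (2.89% higher in KO livers) is a description and nothing is read from it. Values that did not overlap between the genotypes were seen for the same 2 receptors, against 6.03% of all genes. The median KO minus WT difference was 0.12 over the 10 receptors and -0.0028 over all genes.

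**Figure D2:**
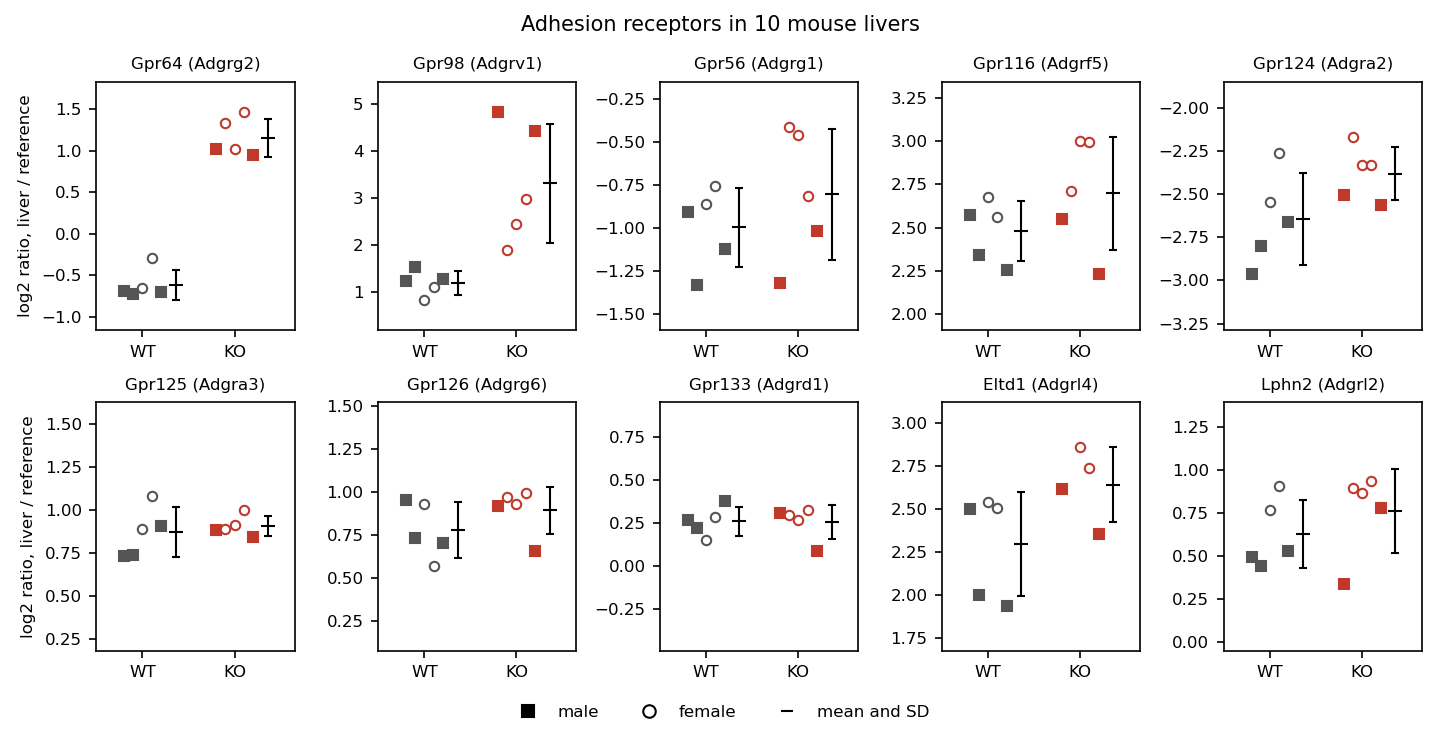
Log2 ratio of liver over reference for each of the 10 receptors, WT (grey) and KO (red), males as filled squares and females as open circles, with group mean and SD at the right of each group. Vertical axes differ between panels. Gpr64 and Gpr98 are the panels in which no KO liver overlaps a WT liver, and within the KO livers of Gpr98 the males stand at 4.42 and 4.83.

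A group of these receptors is known from blood vessels: Eltd1, an endothelial receptor of the latrophilin group, Gpr116, found in endothelium and in lung alveolar cells, and Gpr124, a co-receptor for Wnt7 signals in brain vessels. Eltd1 had log2 ratios of 2.50, 2.002, 2.54, 2.50 and 1.94 in WT 1 to 5. In KO 1, 3, 4 and 5 it was at 2.62, 2.86, 2.73 and 2.35, and the KO 2 spot was left out as an outlier. The groups overlapped through KO 5, a male, and the difference was 0.31 (SE 0.12, limma adjusted p = 0.163, 4 KO and 5 WT livers). Without WT 1 it was 0.39 and passed (limma adjusted p = 0.0388), the 1 of 22 alternatives in which it did.

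Gpr124 was at -2.96, -2.80, -2.54, -2.26 and -2.66 in WT 1 to 5, and at -2.51, -2.17, -2.33, -2.33 and -2.56 in KO 1 to 5. WT 1, 2 and 5, all male, were below every KO liver, while WT 3 and WT 4, both female, lay within the KO range. The KO minus WT difference was 0.20 (SE 0.09, limma adjusted p = 0.212). It passed in 2 of 23 alternatives, with the scanner's log ratio (0.34, limma adjusted p = 0.0227) and with Cy5 alone (0.29, limma adjusted p = 0.0464). Gpr116 differed by 0.14 (SE 0.10, limma adjusted p = 0.494), with KO females at 2.71 to 3.004 and KO males at 2.23 and 2.55. Within slide 1, Eltd1 (KO 1 alone), Gpr124 and Gpr116 differed by 0.37, 0.54 and 0.17. Within slide 3, where the KO liver was male and the WT livers female, they differed by -0.17, -0.16 and -0.39.

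Of 20 markers of sinusoidal and vascular endothelium, 4 rose in KO livers and none fell, against 2.89% higher and 3.08% lower over all genes. The other 16 did not pass. The median over the 20 was 0.24, against -0.0028 over all genes, and the lowest value was -0.07. The markers that rose were the hyaluronan receptor Lyve1 (1.47), the VEGF receptor Flt4 (0.31), Oit3 (0.34) and the adhesion molecule Pecam1 (0.26). They passed in 22, 16, 7 and 4 of 23 alternatives. The mean over the list ran from 2.47 to 2.88 in WT and from 2.93 to 3.15 in KO livers, without overlap. The 8 bile duct markers tested did not overlap either, with a list mean of -2.18 to -1.91 in WT and -1.88 to -1.72 in KO livers and a median of 0.23, though none of them passed in limma (1 did at an unadjusted p under 0.05). None of the 14 stellate, 12 Kupffer cell or 3 neutrophil markers passed for genotype in limma, and 3, 1 and 1 had an unadjusted p under 0.05. Over all genes, 3952 of 18918 had an unadjusted limma p under 0.05 for genotype. Of 13 lymphocyte markers the B cell receptor component Cd79b rose, by 0.48 (limma adjusted p = 0.0324, 14 of 23 alternatives). The list means of these 4 overlapped between the genotypes. The part of these shifts in the values of Eltd1, Gpr116 and Gpr124 was not tested. In bulk liver RNA, more or fewer cells of a type and more or less RNA per cell cannot be told apart.

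**Figure D3:**
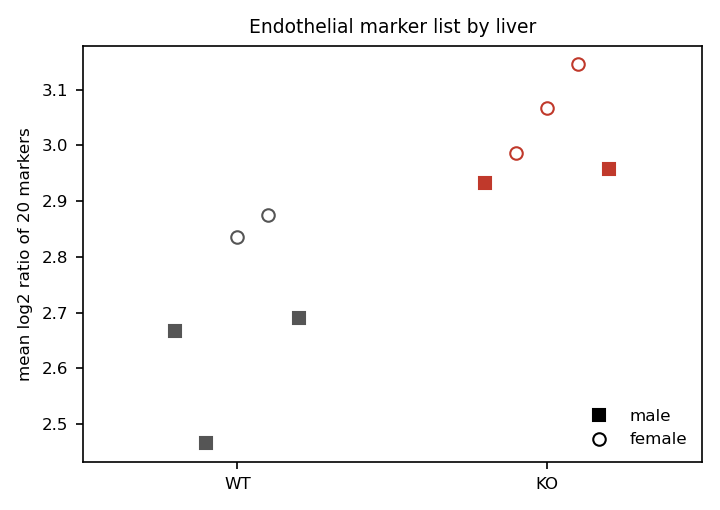
Mean log2 ratio of the 20 endothelial markers in each liver (vertical axis, not starting at 0) by genotype, males as filled squares and females as open circles. All KO livers, from 2.93 to 3.15, lie above all WT livers, from 2.47 to 2.88.

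The 5 remaining receptors had small KO minus WT differences. Gpr56, which binds collagen III and the tetraspanins and is needed for the layering of the cerebral cortex, differed by 0.10 (95% interval -0.16 to 0.35). Gpr126, the receptor that starts myelination in Schwann cells, also differed by 0.10 (-0.11 to 0.31), and a second probe gave 0.02. Lphn2, a latrophilin that binds teneurins and FLRT proteins, differed by 0.07 (-0.12 to 0.25). Gpr125, a relative of Gpr124, differed by 0.01 (-0.15 to 0.16), with WT livers at 0.74 to 1.08 and all KO livers inside that range. Gpr133, a receptor coupled to the stimulatory G protein, differed by -0.01 (-0.17 to 0.15), and its other 2 probes did not pass the filter. The intervals of Gpr125 and Gpr133 leave room for changes of up to about 0.17 on the log2 scale in either direction.

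The sex contrast was not used to choose the set, though the receptors were chosen with earlier results of these data known. For female minus male, 5 of 10 passed, against 11.6% of all genes, with 4 higher in females (5% of all genes) and 1, Gpr98, lower (6.59%). The median over the 10 receptors was 0.30, and over all genes 0.0032. The 5 others, Gpr64, Gpr125, Gpr126, Gpr133 and Eltd1, did not pass.

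Gpr56 rose in females. Its log2 ratios in males were -0.91, -1.33 and -1.12 in WT 1, 2 and 5, and -1.32 and -1.02 in KO 1 and 5. In females they were -0.86 and -0.76 in WT 3 and 4, and -0.41, -0.46 and -0.81 in KO 2 to 4. No female overlapped a male, a separation seen in 9.25% of all genes. The difference was 0.46 (SE 0.12, limma adjusted p = 0.0261).

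Lphn2 differed by 0.34 (SE 0.08, limma adjusted p = 0.022), with females at 0.77 to 0.93 and males at 0.34 to 0.78. KO 5 was the male that reached the females, and KO 1 was the lowest liver. Gpr124 differed by 0.33 (SE 0.09, limma adjusted p = 0.0284), with females at -2.54 to -2.17 and males at -2.96 to -2.51. Gpr116 differed by 0.37 (SE 0.10, limma adjusted p = 0.0403), with females at 2.56 to 3.004 and males at 2.23 to 2.57. In both, the lowest female lay just below the highest male.

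Gpr98 was lower in females by -1.28 (SE 0.32, limma adjusted p = 0.0243), a mean of the large difference among KO livers and the smaller one among WT livers given above. Gpr64 differed by 0.27 (SE 0.10, limma adjusted p = 0.107) and Eltd1 by 0.35 (SE 0.12, limma adjusted p = 0.09). Gpr125, Gpr126 and Gpr133 differed by 0.13, 0.06 and 0.02. None of the 10 receptors passed for the difference in KO effect between the sexes in limma, and Gpr98 was the single one with an unadjusted p under 0.05, against 2372 of all genes tested.

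**Figure D4:**
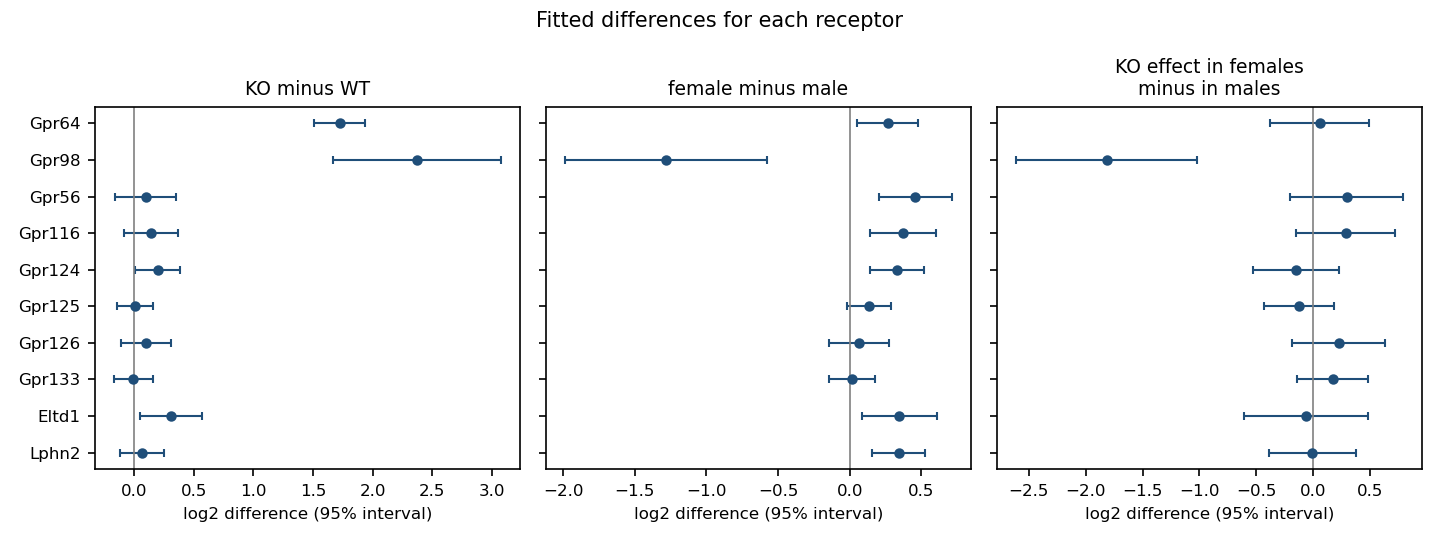
Fitted log2 differences for the 10 receptors (points) with unadjusted 95% intervals (bars): KO minus WT at the left, female minus male in the middle and the KO effect in females minus that in males at the right. Gpr64 and Gpr98, at 1.72 and 2.37, stand apart at the left, and Gpr98 is the receptor below 0 in the middle (-1.28) and the one whose interval misses 0 at the right (-1.82).

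The direction of each of these 5 sex differences held in all 22 alternatives, but the calls did not. With slide as a fixed block, Gpr98 (-1.67, limma adjusted p = 0.0169) and Gpr124 (0.42, limma adjusted p = 0.0285) passed, and Gpr56 (0.52), Gpr116 (0.30) and Lphn2 (0.29) did not, with limma adjusted p of 0.0826, 0.0807 and 0.121. Within slide 1, the KO female minus the KO male was 0.91 for Gpr56, 0.56 for Lphn2, 0.34 for Gpr124 and 0.16 for Gpr116. Without KO 1 none of the 5 passed, and without WT 2, WT 4, KO 3 or KO 5 in turn 2 of 10 did. The reference pool was dim for Gpr116 and Eltd1, well above background on 1 and 0 of 10 arrays.

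Some markers of other liver cells passed for sex, where 5% of all genes were higher and 6.59% lower in females. Among the 20 endothelial markers 3 were higher in females (Fcgr2b, Kdr and Oit3), with a list mean of 2.84 to 3.15 in females and 2.47 to 2.96 in males. Among the 14 stellate and fibroblast markers 4 were higher (Lum, Pdgfra, Pdgfrb and Rgs5) and Acta2 was lower, with a list mean of -0.42 to -0.26 in females and -0.78 to -0.35 in males. Hand2, a defining stellate cell gene, did not pass the filter. None of the 12 Kupffer cell, 8 bile duct, 13 lymphocyte, 3 neutrophil or 14 hepatocyte markers passed for sex in limma. At an unadjusted p under 0.05 there were 1, 1, 0, 0 and 2, against 4686 of all 18918 genes. The part of these shifts in the sex differences of the receptors was not tested.

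The rest of the adhesion receptor family was read from a list of 21 genes, of which 19 were on the array under their names and 15 passed the filter. For KO minus WT, 1 of the 15 passed, against 5.97% of all genes, and the median was 0.08. This was Gpr97 (Adgrg3), a receptor of granulocytes, at 2.20, 2.19, 2.41, 2.28 and 2.59 in WT 1 to 5 and 2.86, 2.53, 2.68, 2.94 and 2.64 in KO 1 to 5. KO 2 fell below WT 5, and all other KO livers were above the WT range. The difference was 0.40 (SE 0.11, limma adjusted p = 0.0482), and it passed in 6 of 23 alternatives, with adjusted p from 0.0158 to 0.168. Of the neutrophil markers 6 of the 9 on the array did not pass the filter, and the mean of the 3 that did was 0.33 to 0.95 in WT and 0.63 to 2.43 in KO livers. Their part in the value of Gpr97 was not tested.

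Gpr110 (Adgrf1) had the largest difference among these 15, -1.04 (SE 0.34, limma adjusted p = 0.105), with KO females at 0.59 to 1.36 and the WT livers at 2.09 to 3.35. KO males were at 2.37 and 2.93, within the WT range. The macrophage receptor Emr4 differed by 0.46 (SE 0.15, limma adjusted p = 0.0896). Bai1, a receptor for phosphatidylserine on dying cells, was lower in every KO liver than in any WT liver, by -0.20 (SE 0.07, limma adjusted p = 0.102). Gpr110, Emr4 and Bai1 were singled out after their values were seen.

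By sex, 4 of the 15 passed, all lower in females, against 6.59% of all genes lower and 5% higher. Lphn3, a latrophilin of synapses, was at 2.23, 2.34 and 1.19 in the WT males, 1.71 and 1.40 in the KO males and 0.35 to 0.72 in the females. It fell by 1.24 in females (SE 0.19, limma adjusted p = 0.00153). Celsr3, a planar polarity cadherin, fell by 0.89 (SE 0.12, limma adjusted p = 0.0005). In both the females lay below every male.

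**Figure D5:**
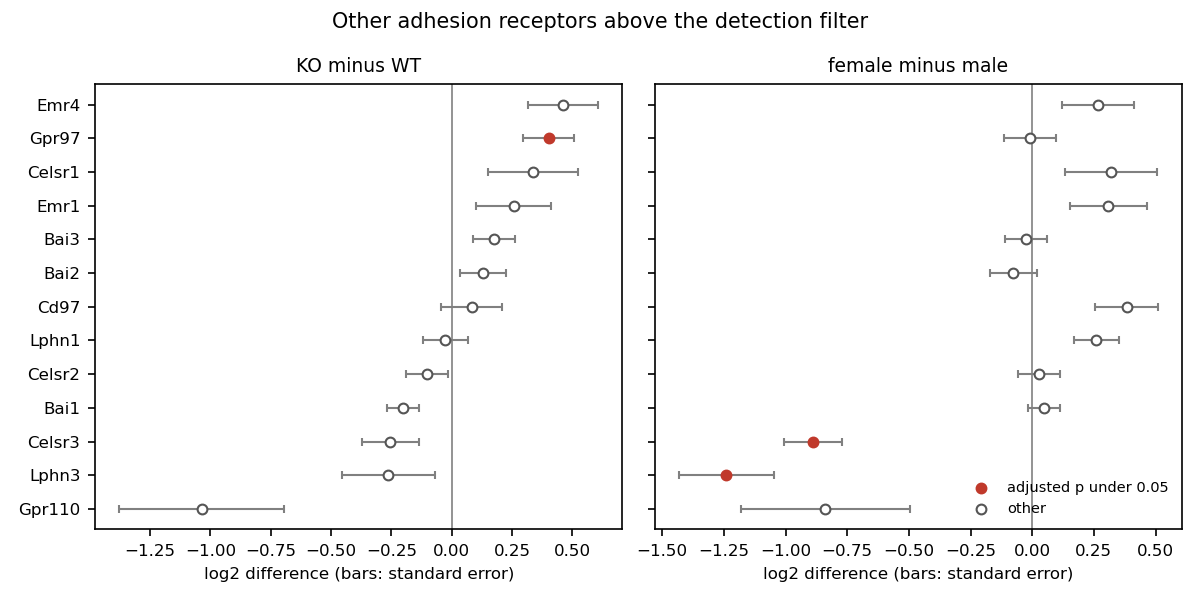
Log2 differences of 13 of the 15 other adhesion receptors that passed the filter (points; bars are standard errors), KO minus WT at the left and female minus male at the right, with filled red points at an adjusted p under 0.05. Gpr97 is the filled point at the left (0.40), and Lphn3 and Celsr3 are the filled points at the right, both below 0.

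Ligands and binding partners of adhesion receptors were read from a list of 25 genes, of which 18 passed the filter. For KO minus WT, 3 rose and 1 fell, against 2.89% and 3.08% of all genes. Reck, the membrane protein that acts with Gpr124 in Wnt7 signalling, was at -0.95 to -0.17 in WT and -0.06 to 0.67 in KO livers, without overlap, and rose by 0.65 (SE 0.11, limma adjusted p = 0.00745). Cd55, the ligand of the leukocyte receptor Cd97, rose by 0.69 (SE 0.14, limma adjusted p = 0.0134). Cd9, a tetraspanin, rose by 0.57 (SE 0.10, limma adjusted p = 0.00959). The prion protein gene Prnp, whose product binds Gpr126, fell by 0.35 (SE 0.09, limma adjusted p = 0.038) and passed in 12 of 23 alternatives.

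By sex, 3 of the 18 passed as higher in females and 1 as lower, against 5% and 6.59% of all genes. Reck and Cd9 were among those higher in females, by 0.51 and 0.64 (limma adjusted p = 0.014 and 0.00213). Of the teneurins, which bind the latrophilins, Tenm3 and Tenm4 passed the filter and differed by sex in opposite directions. Tenm1 and Tenm2 did not pass the filter. Tenm3 was 0.70 higher in females (SE 0.10, limma adjusted p = 0.000883), and Tenm4 fell by 1.17 in females (SE 0.21, limma adjusted p = 0.00375).

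Of 23 G protein, arrestin and adenylyl cyclase genes tested, 2 rose in KO livers and none fell, against 2.89% and 3.08% of all genes. Gnas, the stimulatory G protein subunit, rose by 0.28 (SE 0.07, limma adjusted p = 0.038) and the cyclase Adcy6 by 0.38 (SE 0.09, limma adjusted p = 0.038). They passed in 7 and 8 of 23 alternatives. By sex, Arrb1 (0.26) and Arrb2 (0.21) were higher in females and Gnai1 (-1.17), Gna14 (-0.53) and Adcy6 (-0.40) lower. Over all genes 5% passed as higher and 6.59% as lower in females. Both arrestins passed in 6 of 22 alternatives, Gna14 in 12, Adcy6 in 17 and Gnai1 in 21.

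Of 10 genes for proteins that join Gpr98 in the Usher complexes of hair cells and photoreceptors, 8 passed the filter. None of the 8 passed for genotype in limma, and none had an unadjusted p under 0.05, against 3952 of all 18918 genes. Their differences ran from -0.21 to 0.10. By sex, 1 of the 8 passed, against 6.59% of all genes lower and 5% higher in females. This was Pdzd7, a scaffold that binds Gpr98, lower in females by -1.08 (SE 0.19, limma adjusted p = 0.00283). Its females were at -0.04 to 0.29 and its males at 0.69 to 1.73. Among the males, WT livers were at 1.57, 1.73 and 0.69 and KO livers at 1.35 and 0.83.

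The genes whose profile over the 10 livers lay closest to each of the 2 defining receptors were found by the root mean square difference of values centred on each gene's mean. For Gpr64, whose own spread was 0.91, they were the kinase Dapk2 (0.32), the homeobox gene Lhx6 (0.32) and the transcript ENSMUST00000078702 (0.32). Their KO minus WT differences were 1.24, 2.27 and 1.53. For Gpr98, whose own spread was 1.34, they were ENSMUST00000003582 (0.51), AK054415 (0.53) and the lipid droplet gene Cidec (0.58). Cidec had its KO males at 3.99 and 3.21, its KO females at 0.96 to 1.46 and its WT livers at 0.90 to 1.38. All these genes were picked for their likeness to the 2 receptors over the same livers. Their differences and the high KO males of Cidec follow from that choice, and nothing is read from them.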

How the data were processed

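RNA from 10 mouse livers was measured on 2-colour Agilent arrays of design 014868. Feature Extraction read the scans, in version 10.7.3.1 per the file headers (10.7 in the submitters' processing notes). Spot and local background signals were deposited as linear intensity, uncorrected, per the file headers. LogRatio was deposited as a log10 value, red over green after the software's own correction, per the file headers. A series table deposited by the authors was read as log2 ratios. With it the KO minus WT differences of Gpr98 and Gpr64 were 2.37 and 1.74, against 2.37 and 1.72 in the main fit. Its correlations with the values used here (0.9994 to 0.9996 per array) and column medians (0.00776 to 0.023) do not show the log base. Its slope on the scanner's log ratio, taken as log2, was 0.64 to 0.71. Its background correction and normalisation are not given in the sources used here.

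Of 45018 spots per array, 1639 were controls. Spots flagged as outliers, in the spot or its background (169 to 291 per array), were left out, an order chosen after the data were seen. Signals were corrected with normexp (offset 50), normalised by loess within arrays and averaged per probe. The filter kept 26931 probes that the scanner marked well above background in the liver channel on 4 or more of 10 arrays, and each gene was represented by its brightest probe (18918 genes, 62 with a missing value). Dyes were not swapped, so values were compared between livers only. Probes were named through the RefSeq table of GRCm38.p6 (22951 by accession, 6659 by symbol, 3109 by synonym), and 8455 kept the files' names. Probe coordinates are those of the array files, whose header names mm7, and no mm7 annotation was used here. Promoter windows are RefSeq's for GRCm38.p6.

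Differences were fitted in limma 3.58.1 (R 4.3.3) with genotype and sex, and with their interaction, with Benjamini-Hochberg adjustment over all genes and a threshold of 0.05. The fit was tested on data simulated without slide effects, so that test does not show how slides affect the calls. Each liver counted as 1 replicate. The p-values set a difference against the spread between these livers, with limma's variance drawn in part from all genes. Slide, which partly goes with genotype, was not in the main fit and entered only in the alternatives. The receptors and gene lists were chosen with earlier results of these data known. Named were the 10 receptors, genes of the receptor, ligand, G protein and Usher lists that passed for genotype or sex, cell type markers that passed for genotype, Gcgr, and the 3 nearest profiles of Gpr64 and Gpr98; others are said to be named after their values were seen. The markers named for sex were also named after their values were seen. Single values of some listed genes are not reported here, though counts include them.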

Additional observations from a re-analysis of the deposited data

Results flagged for a closer look

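Single values in 4 groups lay far from the rest of their genotype group, with a gap to the nearest liver that took up more of the group's range than Dixon's 95% critical value allows. Chance gives about 1 such value in 20 groups, and 10 receptors in both genotypes were examined. Gpr64 in WT 4, a female, was at -0.30, above the other WT livers. Gpr126 in KO 5 was at 0.66 and Gpr133 in the same liver at 0.085, both below the other KO livers. Lphn2 in KO 1, a male, was at 0.34, below the other KO livers.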

How the results depend on the processing

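Gpr64 and Gpr98 kept their direction and passed for KO minus WT wherever they were tested, from 1.60 to 3.27 and from 1.24 to 2.64. The set was chosen on this contrast in the same livers, so these calls are a description and nothing is read from them. Gpr64 was not tested when all 10 arrays had to be well above background, which left 1 receptor past the threshold. No called value changed sign. Counts for KO minus WT moved from 1130 genes to 339 with outlier spots removed after the background fit (58.7% of them higher, against 48.4%), 281 with median centring (72.2% higher), 615 without the sex term and 305 with the replicate block. For female minus male they moved from 2192 to 788 with outliers removed after (56.1% higher, against 43.1%), 921 with median centring and 156 with the replicate block (29.5% higher). The receptors past the sex threshold, 5 of 10, were 3 with the scanner's log ratio, 1 with outliers removed after, 1 with median centring, 2 with slide as a fixed block and 0 with the replicate block. The 6 genes of the interaction were 1 with the scanner's log ratio, 1 with outliers removed after, 17 with Cy5 alone, 11 with slide fixed and 18 with the replicate block, and none of the 10 receptors passed in any of 22 alternatives; median centring moved the median interaction of all genes from 0.02 to 0.16. Of the other adhesion receptors, 0 passed with the scanner's log ratio, outliers removed after, median centring, the authors' table, no filter, no sex term or the replicate block, and 2 with slide as a fixed or random block. Of those 2, 0 were higher in KO livers with slide fixed and 1 with slide random. With Cy5 alone 1 passed and 0 were higher, whereas the 1 of the main fit was higher. Leaving out each liver in turn gave 593 (WT 3) to 1183 genes and 2 to 3 receptors for genotype, 1551 to 2513 genes and 0 (KO 1) to 5 receptors for sex, 2 to 116 (KO 1) genes for the interaction, and 0 to 2 other receptors; genotype gave 599 genes without KO 1 and 667 without KO 4. Whether the replicate numbers pair the livers cannot be told from the values. The deviations of same-numbered livers correlated at 0.54, -0.43, 0.44, 0.51 and 0.23. The negative value is that of number 2, whose WT liver was male and KO liver female. The best match carried the same number for numbers 1 and 4 only. With the replicate block 2 of 10 receptors passed for genotype. For sex, the replicate block sets males against females only within number 2 (WT 2 male, KO 2 female). The counts for sex with that block therefore rest on this pair. The cause of the other moves was not tested. Signal over background limits Gpr64 in WT livers, the upstream Gpr98 probes and the reference for Gpr98, Gpr116 and Eltd1.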
